A study of Mus musculus with 127 samples.

Results

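Myeloid granule and lysozyme genes were followed cell by cell: Mpo, Ctsg, Elane, Prtn3, Lyz1, Lyz2, S100a8, S100a9, Ngp and Camp, which are 10 of the 24320 gene symbols in the table. They were chosen by name, and each symbol stands for the row with the highest mean level. In these single marrow cells most values of the genes were 0. They reached an RPKM of 100 or more (read numbers scaled to transcript length and to depth) in 9 of 127 cells. The Alas2 transcript was not detected in any of those 9 cells, and their globin transcripts were low. Of the 9, 5 also held transcripts of basophil and mast cell granule proteases. The other 4 held none of these and 5 to 11 of 18 monocyte and macrophage markers, of which the 5 held 2 to 4.

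Each sample was 1 cell from the marrow of a C57BL/6J mouse, labelled as an erythroblast, captured in a microfluidic chamber, photographed for the red cell surface antigen Ter119 and sequenced after SMART-Seq amplification. The 48 Flvcr-deleted cells lacked, by their label, the gene of a heme exporter, the 48 wild-type cells came from untreated wild-type mice, and the 31 EPO-treated cells came from wild-type mice given erythropoietin, the hormone that drives red cell production. Every cell also carried a class letter, and in wild-type cells the letters followed Ter119 without overlap: there the normalized value ran from 0.0838 to 0.261 in class A, from 0.330 to 0.541 in B, from 0.551 to 0.741 in C and from 0.759 to 0.9998 in D. In Flvcr-deleted cells the classes did not overlap either, with A up to 0.287 and B from 0.313. In EPO-treated cells, which came from a larger and a smaller chip, the classes overlapped when the chips were pooled. Their medians were 0.0184, 0.0988, 0.281 and 0.556 from A to D. Within the larger chip only C, up to 0.366, and D, from 0.358, overlapped, and within the smaller chip no classes did. Ages, animals, the agent that deleted Flvcr, the promoter behind it and the EPO dose were not named in the labels. Because no animal was named, each group is 1 sample here, and no test between groups was made. Intervals on shares are exact (Clopper-Pearson) 95% intervals over cells and cover counting error only.

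Myeloperoxidase, the serine proteases cathepsin G, neutrophil elastase and proteinase 3, and lysozyme are made early in granulocyte and monocyte development and packed into primary granules. Ngp and Camp belong to the later, secondary granules, and S100a8 and S100a9 encode a calcium-binding pair that fills the cytosol of neutrophils. Red cell precursors instead make globin, and Alas2 encodes the erythroid form of the first enzyme of heme synthesis. Basophils and mast cells carry their own granule proteases, among them those encoded by Mcpt8, Prss34 and Cpa3.

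In class A there were 18 cells of the Flvcr-deleted group, 6 wild-type cells and 7 from EPO-treated mice, and in classes B to D together 30, 42 and 24. A gene was counted as detected at an RPKM of at least 1. The median class A cell had 830 detected genes in Flvcr-deleted (169 to 3069), 2878 in wild-type (2384 to 4047) and 1464 in EPO-treated cells (1033 to 2553). Of the Flvcr-deleted class A cells, 9 carried a class label with the suffix d and 9 with the suffix a. Read totals are unknown. No capture chip held cells of different groups, so differences between any of the groups cannot be told apart from differences between chips. The columns of EPO-treated cells were written with at most 2 decimals in 100% of their values above 0, against 0.00247% and 0.00274% in the other groups, so they may have been made apart, and differences with them cannot be told apart from that. Flvcr1, listed under its older symbol Mfsd7b, was detected in 1 of 127 cells, a wild-type class A cell at 2.08, so its row does not check the label of the Flvcr-deleted cells. No pair of columns was identical.

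The erythroblast label was checked against 13 erythroid markers. In classes B to D, globin transcripts made up 17.0% to 92.2% of the summed RPKM of each wild-type cell and 17.0% to 95.5% of each EPO-treated cell, and Alas2 was detected in 42 of 42 and 22 of 24 cells. In Flvcr-deleted cells of these classes the globin share ran from 0.320% to 97.3% and Alas2 was detected in 26 of 30. The 6 wild-type class A cells lacked the defining transcripts of their label: their globin share was at most 0.199%, and Alas2, Slc4a1 and Epb4.2 were listed at 0 in all 6. Cell 28 of these held Gata1, Klf1 and Epor nonetheless. The 10 globin symbols hold near-identical copies that can share reads and are summed here, so the globin share counts such reads more than once. The cells that held the granule genes are given by name throughout.

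The promoters of the 4 genes that gave the highest levels, Mpo, Ctsg, Elane and Prtn3, are shown first, because these genes were detected together in part of the cells. Sequences are the 250 bases before the RefSeq start in GRCm38.p6, read 5′ to 3′ on the gene's own strand: chr11:87793534-87793783 on the plus strand, chr14:56102575-56102824 on the minus strand, and chr10:79886062-79886311 and chr10:79879417-79879666 on the plus strand. Capitals mark GAGGAA, the core bound by the myeloid factor PU.1, searched on both strands.
Mpo: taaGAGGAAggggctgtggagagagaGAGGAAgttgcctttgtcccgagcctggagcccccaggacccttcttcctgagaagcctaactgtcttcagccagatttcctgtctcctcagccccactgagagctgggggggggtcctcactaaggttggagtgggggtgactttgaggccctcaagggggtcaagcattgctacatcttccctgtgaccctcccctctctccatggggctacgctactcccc
Ctsg: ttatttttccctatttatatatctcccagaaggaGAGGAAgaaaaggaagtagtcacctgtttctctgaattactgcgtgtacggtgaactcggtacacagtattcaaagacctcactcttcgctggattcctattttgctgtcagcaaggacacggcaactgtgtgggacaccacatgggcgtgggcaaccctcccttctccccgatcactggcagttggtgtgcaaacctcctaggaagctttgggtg
Elane: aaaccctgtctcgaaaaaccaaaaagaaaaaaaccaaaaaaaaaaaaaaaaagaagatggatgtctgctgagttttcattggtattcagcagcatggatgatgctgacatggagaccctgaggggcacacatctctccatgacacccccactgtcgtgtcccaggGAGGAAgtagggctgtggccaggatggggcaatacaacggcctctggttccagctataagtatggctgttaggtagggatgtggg
Prtn3: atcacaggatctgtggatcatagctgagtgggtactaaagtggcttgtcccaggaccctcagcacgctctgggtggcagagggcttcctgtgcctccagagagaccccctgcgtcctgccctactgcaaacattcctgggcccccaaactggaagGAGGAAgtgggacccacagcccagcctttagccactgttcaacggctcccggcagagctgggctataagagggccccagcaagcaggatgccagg
The Mpo window held 2 matches, 247 and 224 bases before the start, and the other windows held 1 each, at 216 bases for Ctsg, 85 for Elane and 95 for Prtn3. The same letters occur in 23.3% of 32851 promoter windows of that length, so a match here is only a description. Searches for the C/EBP motif TTGCNNAA, found in 9.56% of all windows, and the GATA motif AGATAA, found in 9.99%, gave no match in these 4, which says only that these letters are not in these windows. No matches of different motifs overlapped. Of the other genes followed, S100a8 held 2 matches of GAGGAA, and Lyz1, Lyz2, S100a9, Ngp and Camp held none. Prtn3 and Elane are neighbours with 0 protein-coding genes between them in RefSeq.

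Lyz1 and Lyz2, the lysozyme pair, are also neighbours with 0 protein-coding genes between them, and their windows, chr10:117292869-117293118 and chr10:117282273-117282522, both on the minus strand, are shown because their likeness bears on how reads can be assigned. Capitals mark the C/EBP motif TTGCNNAA, here on the opposite strand, 209 bases before the start of Lyz1.
Lyz1: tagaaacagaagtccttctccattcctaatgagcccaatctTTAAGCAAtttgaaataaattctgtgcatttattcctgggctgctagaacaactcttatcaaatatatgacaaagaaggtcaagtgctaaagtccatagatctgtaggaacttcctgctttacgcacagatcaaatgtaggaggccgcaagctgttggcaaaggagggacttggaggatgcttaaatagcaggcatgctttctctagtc
Lyz2: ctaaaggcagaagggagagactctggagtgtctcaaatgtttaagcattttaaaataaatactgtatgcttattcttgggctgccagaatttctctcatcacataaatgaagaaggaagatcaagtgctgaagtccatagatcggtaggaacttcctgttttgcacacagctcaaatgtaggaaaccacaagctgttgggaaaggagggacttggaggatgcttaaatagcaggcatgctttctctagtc
Laid side by side at the start without gaps, 50 of the last 50 bases and 92 of the last 100 were identical, against 152 of 250 over the whole window. The transcripts are alike as well: of the 50-base words of the Lyz1 transcript, 16.1% also occur in Lyz2, and 15.4% the other way. Reads from such stretches can be assigned to either gene, so the split between Lyz1 and Lyz2 is uncertain and their detection together is not independent.

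Mpo, which encodes myeloperoxidase, was detected in 8 cells, 7 of them in class A. In Flvcr-deleted class A cells it was 332 in cell 8 and listed at 0 in the other 17. In wild-type class A cells it was 860 in cell 9, 2291 in cell 13 and 2778 in cell 31, and listed at 0 in cells 4, 12 and 28. Among EPO-treated class A cells it was 4700 in cell 4, 2022 in cell 10 and 2182 in cell 35, at 0.08 in cell 20 and listed at 0 in cells 7, 17 and 21. The high cells of the wild-type and EPO-treated groups overlapped in level, and the Flvcr-deleted cell lay under all 6 of them. The only detected value outside class A was 2.66 in wild-type class B cell 42.

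Ctsg, which encodes cathepsin G, was detected in the same 7 class A cells as Mpo and in no other cell. Its RPKM was 246 in Flvcr-deleted cell 8. It was 634, 562 and 791 in wild-type cells 9, 13 and 31, and 455, 529 and 700 in EPO-treated cells 4, 10 and 35. Over these 7 cells Ctsg therefore varied less than Mpo, from 246 to 791 against 332 to 4700. The Mpo level was above that of Ctsg in each of the 7, least so in Flvcr-deleted cell 8 and wild-type cell 9.

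Elane, the neutrophil elastase gene, was much more restricted. It was 5128 in EPO-treated cell 4 and 5056 in EPO-treated cell 35, the highest values of any of the 10 genes. No other cell reached an RPKM of 1, and all Flvcr-deleted cells were listed at 0. Of the 7 class A cells with Mpo and Ctsg, 5 thus had Elane listed at 0: Flvcr-deleted cell 8, wild-type cells 9, 13 and 31, and EPO-treated cell 10.

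Prtn3, which encodes proteinase 3, was detected in 4 class A cells. It was 1197 and 1036 in EPO-treated cells 4 and 35, the same cells that held Elane. It was 153 in wild-type cell 12, which had neither Mpo, Ctsg nor Elane, and 20.7 in Flvcr-deleted cell 8. Detection of Prtn3 therefore included the 2 cells with Elane and did not follow it in the others. Outside class A it was 6.78 in wild-type class B cell 42.

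Lyz2, the lysozyme gene of macrophages and other myeloid cells, was detected in 5 class A cells. It was 343 and 1.64 in wild-type cells 12 and 9, and 622, 229 and 4.72 in EPO-treated cells 35, 17 and 4. Lyz1 was detected in 3 of these, at 47.6 in wild-type cell 12 and at 188 and 25.2 in EPO-treated cells 35 and 17. Both genes were listed at 0 in all 48 Flvcr-deleted cells. Where both were detected, the ratio of Lyz2 to Lyz1 was 7.22, 9.08 and 3.32, so Lyz2 was the higher in each, within the limit on shared reads given above. High lysozyme came in 3 cells, of which only EPO-treated cell 35 also held Mpo and Ctsg.

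The genes of later granulocyte stages were at 0 in nearly all cells. S100a8, S100a9 and Ngp were listed at 0 in all 127 cells. Camp, the cathelicidin gene, was 3.89 in Flvcr-deleted class C cell 45 and listed at 0 in the other 126. Being listed at 0 throughout was common, since 51% of all symbols were, among them Jun, Junb and Ier2, which most cell types use. Single-exon genes were at 0 in every cell in 99.3% of cases (3512 of 3535, exon numbers from GENCODE vM21), against 41.9% of genes with 2 or more exons. S100a8 and S100a9 have 3 exons and Ngp and Camp 4. Of the other granule genes looked at, Lcn2, Mmp9, Chil3, Fcnb, Bpi and Ltf were listed at 0 in every class A cell. Mmp8 was 9.51 in wild-type cell 9, and Hp, the haptoglobin gene, was 18.2 in that cell and 7.35 in EPO-treated cell 4. Others of that list were detected more widely, among them Pglyrp1 in 5 class A cells at 70.7 to 220.

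**Figure D1:**
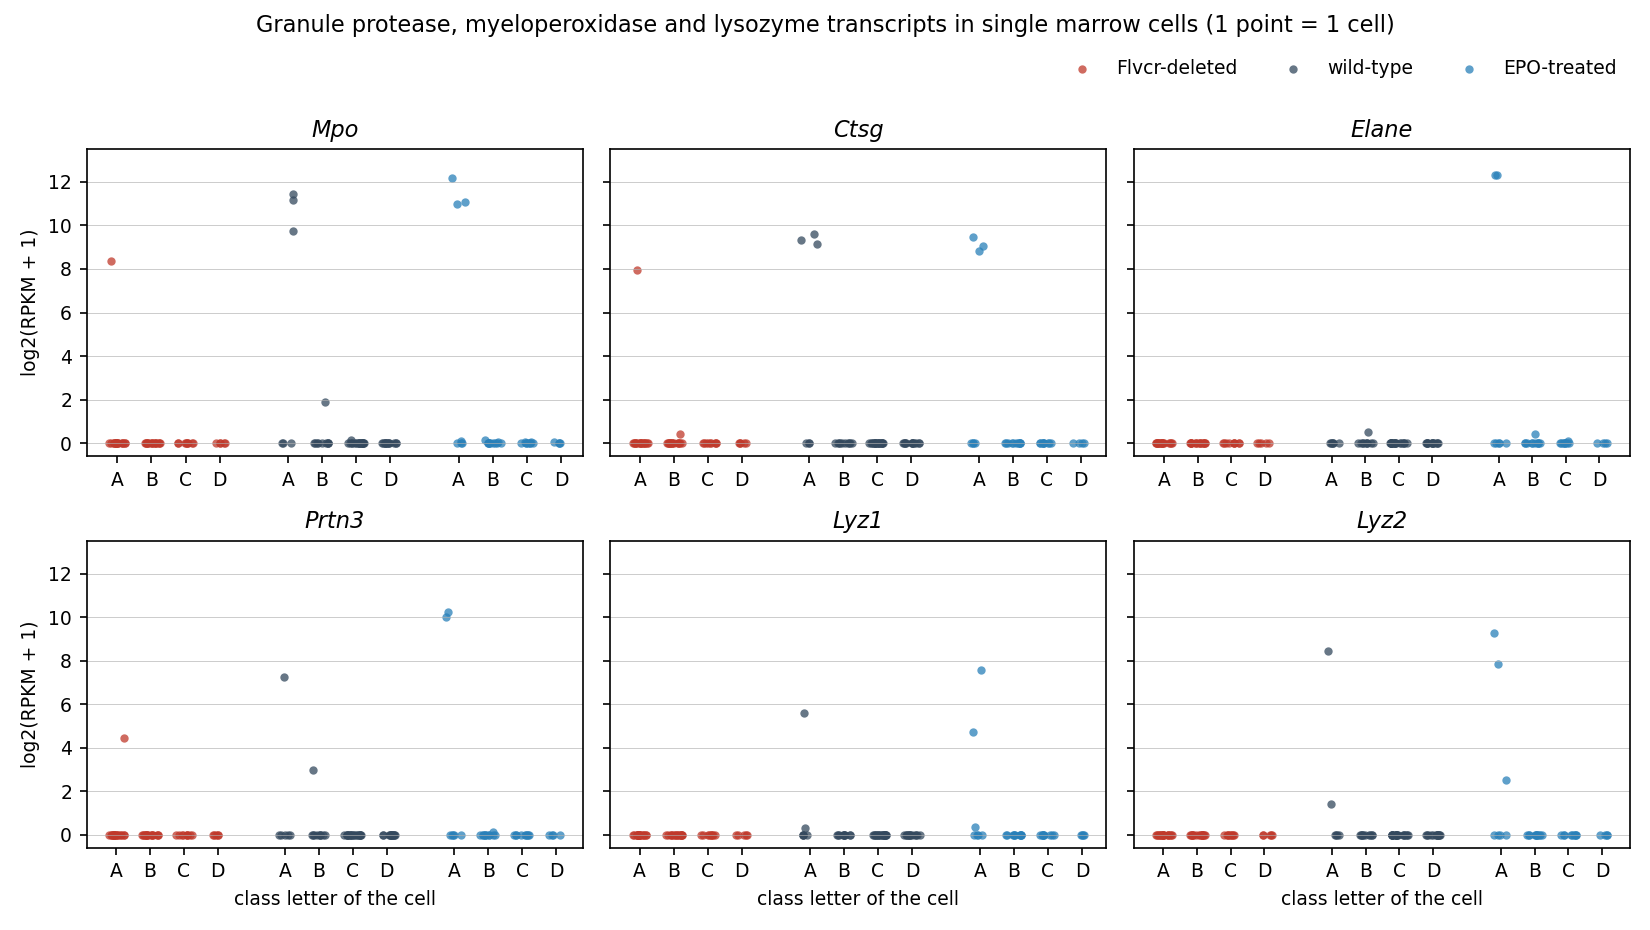
Each point is 1 cell. The vertical axis gives log2(RPKM + 1) for 6 genes and the horizontal axis the class letters A to D within each group by colour, with points spread sideways for sight only. High values lie in class A in every panel, and Elane is high in EPO-treated cells 4 and 35 alone.

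Counted per cell, at least 1 of the 10 genes was detected in 1 of 18 Flvcr-deleted class A cells (5.56%, interval 0.141% to 27.3%), in 4 of the 6 wild-type ones (66.7%, 22.3% to 95.7%) and in 4 of 7 EPO-treated cells (57.1%, 18.4% to 90.1%). At least 2 were detected in the same numbers of cells. At least 3 were detected in 1 of 18, in 2 of 6 (33.3%, 4.33% to 77.7%) and in 2 of 7 (28.6%, 3.67% to 70.96%). The wild-type share was 16.7% at an RPKM of at least 10, where cell 9 dropped out because its Lyz2 was 1.64, and 16.7% with Lyz1 left out, where cell 12 did. The whole Flvcr-deleted share rested on cell 8 and is 0% without it. Alas2 was detected in 7 of the 18 Flvcr-deleted class A cells and in 0 of the 6 wild-type ones. Depth moved with the group as well: 7 of the 18 had at least 1000 detected genes, against all 6 wild-type and all 7 EPO-treated cells, and among those 7 the share with at least 3 members was 14.3%. The part of depth in the lower Flvcr-deleted share was not tested further.

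In classes B to D at least 1 of the genes was detected in 1 of 30 Flvcr-deleted cells (3.33%, 0.0844% to 17.2%), in 1 of the 42 wild-type ones (2.38%, 0.0603% to 12.6%) and in 0 of 24 EPO-treated cells, whose interval reaches 14.2%. These were Flvcr-deleted class C cell 45, with Camp, and wild-type class B cell 42, with Mpo and Prtn3. Both were globin-rich, at 64.9% and 28.9% of summed RPKM. Their members made up 0.000478% and 0.00253% of summed RPKM, against 0.164% to 3.59% in the 9 cells with high values. Below the threshold, EPO-treated cells of these classes gave 8 values from 0.02 to 0.32 in 7 cells, Flvcr-deleted class B cell 17 gave 0.339 for Ctsg, and wild-type cells gave 0.433 for Elane (cell 42) and 0.0878 for Mpo (class C cell 7).

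Differences of the mean log2(RPKM + 1) between groups were taken over class A cells, a scale that understates changes of genes near 0. For Flvcr-deleted minus wild-type cells, the difference in Mpo was -4.93, with means of 0.47 (SD over cells 1.98, n = 18) and 5.39 (SD 5.93, n = 6). Of the 10 genes, 3 were lower by 1 or more, against a background of 29.6% of the 11923 genes above 0 in any cell. These were Mpo, Ctsg and Lyz2, and 0 were higher by as much, against 0.721%. The median over the 10 genes was -0.48, beside -0.33 over all genes above 0. Prtn3 and Lyz1 fell just short of that size, at -0.965 and -0.983. S100a8, S100a9 and Ngp, at 0 in every cell, are not among the 11923 genes. Here and in the comparisons below, the 10 genes and the background are therefore not like sets. A count of 3 in 10 is no result about these genes. None of the 10 passed the filter of a mean log2 level of at least 1 over all cells, which 2540 genes passed, and 63.7% of those were lower by 1 or more, with a median of -1.66.

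For EPO-treated minus wild-type class A cells, 3 of the 10 genes were higher by 1 or more, against a background of 4.45%: Elane by 3.52, Prtn3 by 1.68 and Lyz2 by 1.17 on the log2 scale. None was lower by 1 or more, against 23.2%. Elane rested on EPO-treated cells 4 and 35, and its EPO-treated mean of 3.52 had an SD over cells of 6.01 (n = 7), larger than the mean. Mpo and Ctsg differed by -0.48 and -0.77, with SDs over cells of 4.87 to 6.10 in both groups. The median over the 10 genes was 0, beside -0.08 over all genes above 0. Cell 35 was the only class A cell from the smaller EPO-treated chip, which gave 4 of the 31 EPO-treated cells. Both comparisons share the wild-type cells.

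In classes B to D no gene of the 10 differed by 1 or more, and none could. Their highest mean in any group and class letter there was 0.296, for Prtn3 in wild-type class B. The backgrounds there were 13.9% lower and 0.99% higher for Flvcr-deleted minus wild-type cells, and 12.5% and 0.226% for EPO-treated minus wild-type cells. Because the 10 genes lay near 0, these shares are given for description only. Class A was also set against class B within each group. In EPO-treated cells 6 of the 10 genes were higher in class A by 1 or more, against a background of 7.28%, and in wild-type cells 3 were, against 15.4%. In Flvcr-deleted cells 0 were, against 0.277%. EPO-treated cells 4, 10, 17 and 35 carried the count of 6, with Elane and Prtn3 in cells 4 and 35 alone. Lyz1 and Lyz2 can share reads, and S100a8, S100a9 and Ngp lie outside these backgrounds. In the other direction none of the 10 could be lower in class A by 1 or more, since no class B mean exceeded 0.296. The backgrounds of 12.9%, 12.3% and 10.7% in EPO-treated, wild-type and Flvcr-deleted cells therefore allow no comparison.

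The 9 cells that held the genes were poor in erythroid transcripts. Their globin share ran from 0.0101% to 0.199% in 8 cells and was 2.58% in EPO-treated cell 17. Hbb-b1, a beta-globin gene, was between 0.456 and 19.0 in 8 of the 9 and 740 in that cell, and Hba-a1, an alpha-globin gene, between 10.4 and 334. Alas2 was at most 0.05. Gata1, which encodes the erythroid factor in the study's title but is also used by basophil and mast cell lineages, was detected in 2 of the 9, at 68.1 in wild-type cell 9 and 43.7 in EPO-treated cell 10. For comparison, the median wild-type cell of classes B to D had an Alas2 RPKM of 1120 and an Hbb-b1 RPKM of 69622. Low erythroid transcripts were not particular to the 9, since wild-type class A cells 4 and 28, without the 10 genes, had globin shares of 0.173% and 0.00115% and Alas2 listed at 0. Depth was not the lowest in these cells, which had 1399 to 3274 detected genes.

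**Figure D2:**
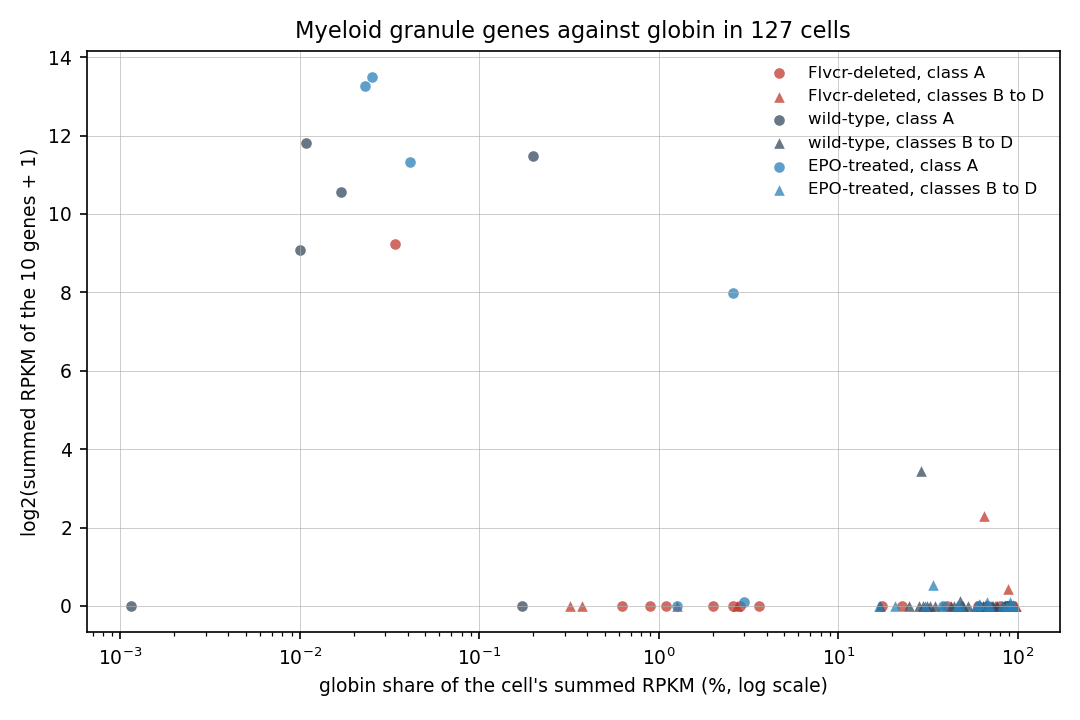
Each point is 1 of the 127 cells. The horizontal axis is the globin share of each cell's summed RPKM (log scale) and the vertical axis log2 of the summed RPKM of the 10 genes plus 1; circles are class A and triangles classes B to D. The 9 high cells lie at a globin share of 0.0101% to 2.58%, and wild-type cell 42 and Flvcr-deleted cell 45 are the highest triangles.

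The 9 cells fell apart further by what else they held. In 5 of them, Flvcr-deleted cell 8, wild-type cells 9, 13 and 31 and EPO-treated cell 10, Mpo and Ctsg came with Mcpt8, which encodes a basophil granule protease. Mcpt8 was 1496 in Flvcr-deleted cell 8, 12164, 17450 and 18125 in the wild-type cells and 32973 in EPO-treated cell 10. It was at most 1.33 in every other cell. Prss34, another basophil and mast cell protease gene, was 49052, 100462 and 63262 in the wild-type cells and 109676 in EPO-treated cell 10, but listed at 0 in Flvcr-deleted cell 8. Mcpt8 and Prss34 together made up 23.3% to 33.1% of the summed RPKM in those 4 cells and 0.411% in Flvcr-deleted cell 8.

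Cpa3, the mast cell carboxypeptidase gene, was 569 in Flvcr-deleted cell 8, 839, 966 and 1599 in wild-type cells 9, 13 and 31, and 2952 in EPO-treated cell 10. Ms4a2, which encodes the beta chain of the high-affinity IgE receptor, followed the same 5 cells at 7.18, 53.5, 90.6, 50.3 and 92.3. Fcer1a, the alpha chain, was listed at 0 in Flvcr-deleted cell 8 and stood at 760, 17.4, 1633 and 2558 in the others. Of the 9 markers of the eosinophil, basophil and mast list, 3 were detected in Flvcr-deleted cell 8 and 5 in each of the other 4, and the summed level of the list was 2073 and 62869 to 148250. The eosinophil genes Prg2, Ear1 and Ear2 were listed at 0 in all 9 cells and Epx was at most 0.03. Gata2, a progenitor factor that basophils and mast cells keep, was 17.9, 127, 180, 600 and 189 in the same 5 cells, but was detected in 13 cells in all, at up to 258 outside the 9. Their part in the Mpo and Ctsg values was not tested.

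In the other 4 cells, wild-type cell 12 and EPO-treated cells 4, 17 and 35, Mcpt8, Prss34, Cpa3, Ms4a2, Fcer1a and Gata2 were all listed at 0. They held instead Ly86, a surface protein gene of monocytes, macrophages and B cells, at 196, 136, 69.3 and 461, and Irf8, which encodes a factor needed for monocyte and dendritic cell development, at 44.5, 145, 328 and 71.1. Neither gene was confined to these cells: Ly86 was detected in 7 cells, 2 of them in classes B to D and 1 of those at 538, and Irf8 in 6. Ccr2, the chemokine receptor of inflammatory monocytes, was 191 in wild-type cell 12, 170 and 1089 in EPO-treated cells 17 and 35, and listed at 0 in EPO-treated cell 4. Ly6c2 was 540, 870 and 1773 in wild-type cell 12 and EPO-treated cells 4 and 35, and listed at 0 in cell 17. Of the 18 monocyte and macrophage markers, 11, 6, 5 and 10 were detected in wild-type cell 12 and EPO-treated cells 4, 17 and 35. In the 5 cells with Mcpt8 2 to 4 were detected, among them Tyrobp and Fcer1g in all 5, and both of these are also used by basophils and mast cells. The macrophage genes C1qa, C1qb, C1qc, Vcam1 and Cd14 were listed at 0 in all class A cells.

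The granule genes thus came in different sets. EPO-treated cells 4 and 35 held the widest, with Mpo, Ctsg, Elane, Prtn3 and Lyz2, and cell 35 also held Lyz1, Cd34 at 88.5 and Myb at 31.9, both genes of early progenitors. Wild-type cell 12 held Prtn3 with lysozyme, and its Csf1r, the receptor gene for the macrophage growth factor, was 67.4. EPO-treated cell 17 held lysozyme alone, with Flt3, a progenitor and dendritic cell receptor gene, at 138. Several wide markers were common to both sets: Ms4a3, a gene of granulocyte and monocyte progenitors, was detected in the 7 cells with Mpo and Ctsg, from 131 in Flvcr-deleted cell 8 to 1796 in EPO-treated cell 10. Tyrobp was detected in all 9, from 52.6 to 1456.

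**Figure D3:**
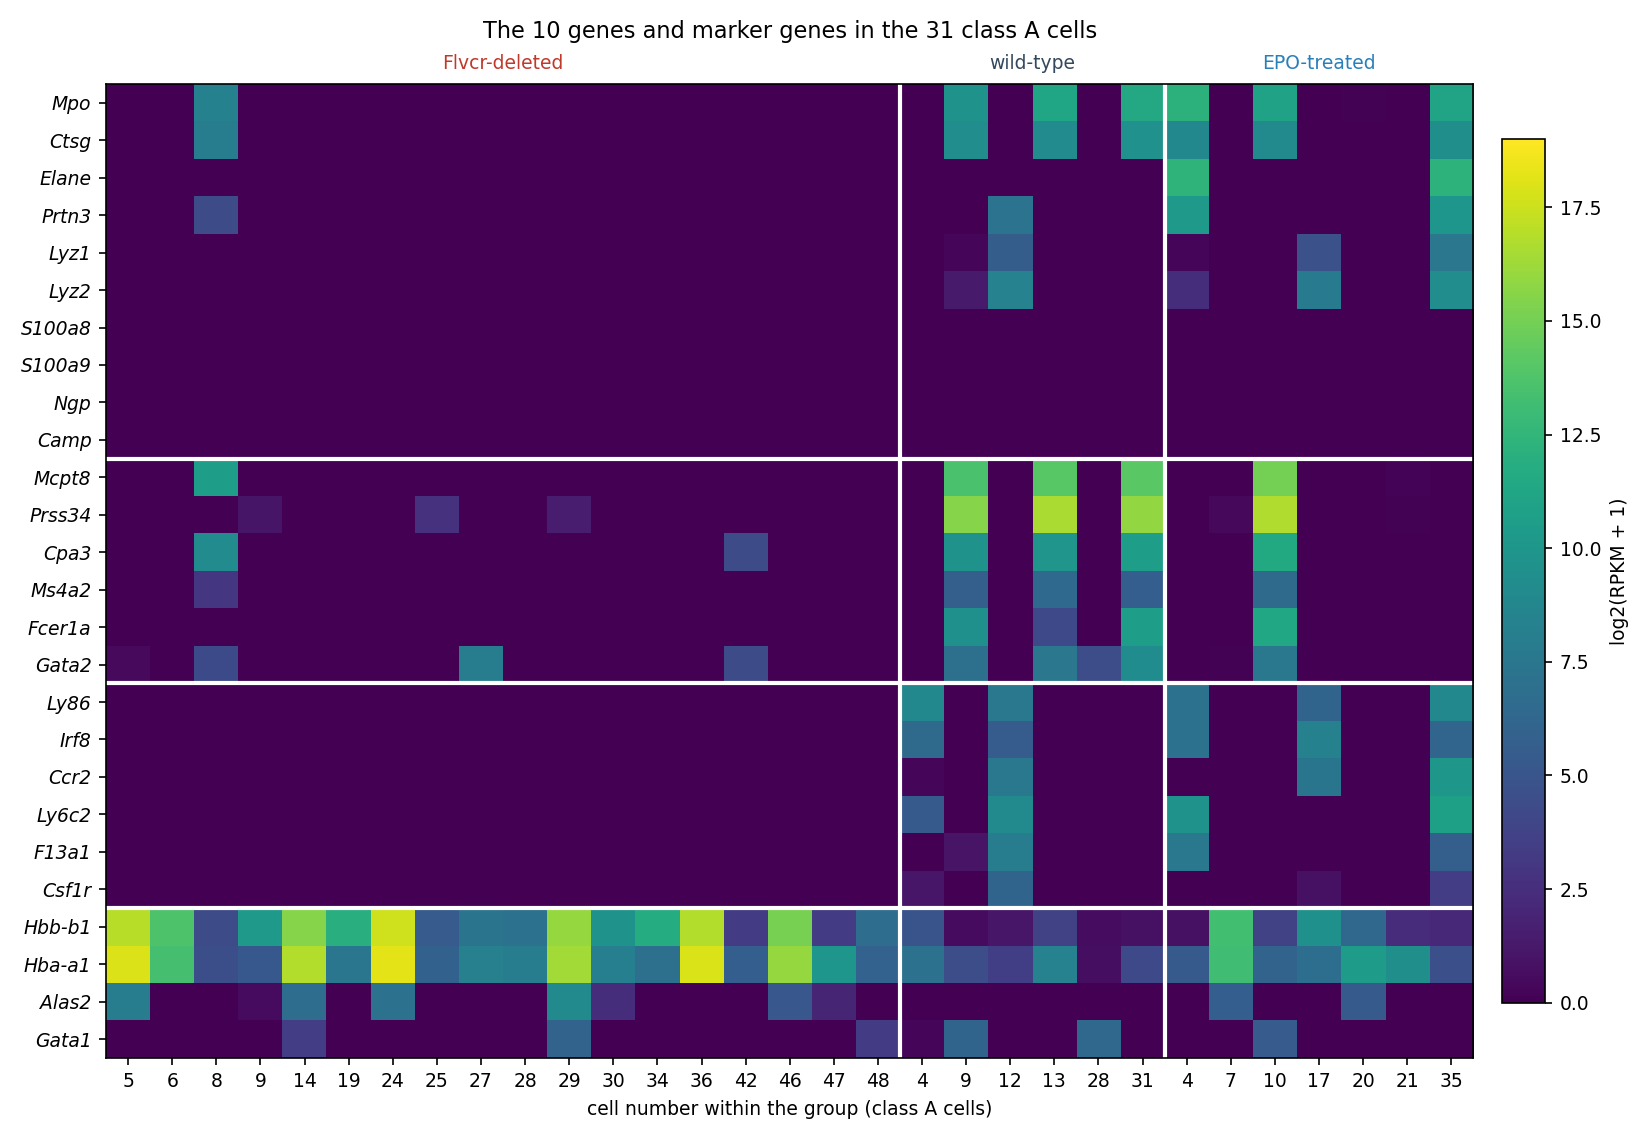
Columns are the 31 class A cells by group and cell number, rows are genes, and colour gives log2(RPKM + 1); white lines part the 10 genes, basophil and mast cell genes, monocyte genes and erythroid genes. Mpo and Ctsg share columns, 5 of the 7 with Mcpt8 and 2 with Ly86 and Irf8, and the 17 other Flvcr-deleted columns are empty in the top block.

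Other granule genes were counted over a list of 18. Of these, 7 were detected in Flvcr-deleted cell 8, 9, 5 and 6 in wild-type cells 9, 13 and 31, 6 in EPO-treated cell 10, and 7 and 5 in EPO-treated cells 4 and 35. The cells with lysozyme but no Mpo, wild-type cell 12 and EPO-treated cell 17, had 2 each. Srgn, which encodes the proteoglycan core that holds granule proteases, was 900 in Flvcr-deleted cell 8 and 206, 253 and 449 in wild-type cells 9, 13 and 31. It was 681, 137, 85.7 and 5.48 in EPO-treated cells 10, 4, 35 and 17, and listed at 0 in wild-type cell 12. Srgn was not confined to the 9 cells: it was detected in 36 of 127, at up to 75.7 outside them. Pglyrp1, a granule peptidoglycan-binding protein gene, was detected in 5 cells of 127, all with Mcpt8, at 70.7 to 220. Nkg7, a gene of cytotoxic granules, was detected in 6 of the 9, at 434 to 2345.

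Of the 11 myeloid transcription factor genes, 0 to 4 were detected in each of the 9 cells. Cebpa, Cebpb, Cebpd, Cebpe and Klf4 were listed at 0 in all cells, but the first 3 of these have 1 exon, like Jun, Junb and Ier2, which were also at 0 in every cell, so no level can be read for them. Spi1, which encodes PU.1 and has 5 exons, was 2.15 in EPO-treated cell 35 and under 1 in the other 8 cells, and its highest value, 36.4, was in an EPO-treated cell outside class A. Irf5 was 293 in wild-type cell 12 and listed at 0 elsewhere. Runx1 was detected in 5 of the 9, from 1.49 to 50.2, and in other cells as well. Of the 7 neutrophil surface and late genes in the table, Fpr1, Retnlg, Il1b and Cd177 were at 0 in every class A cell, and Ccl6 was detected in wild-type cell 31 only, at 37.9. Csf3r and Cxcr2, receptor genes of granulocytes, did not mark the 9 cells: Csf3r was detected in 83 of 127 cells, at up to 6.88 in the 9 and 29.2 in classes B to D, and Cxcr2 in 114, at 2.38 to 24.9 in the 9. Of the B lymphocyte list, only Cd79b was detected in the 9 cells, at 474 in EPO-treated cell 10 and 21.1 in cell 35.

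**Figure D4:**
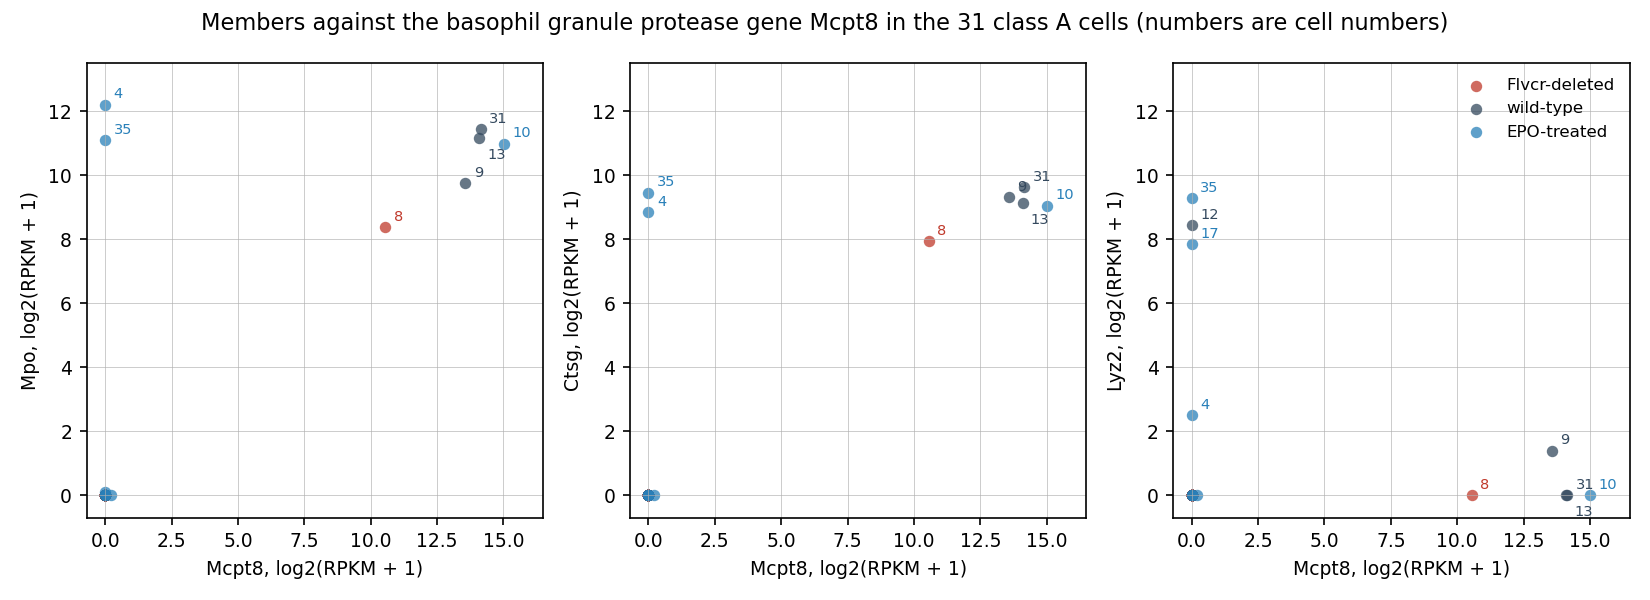
Each point is 1 class A cell, with Mcpt8 on the horizontal axis and Mpo, Ctsg or Lyz2 on the vertical axis, all as log2(RPKM + 1), and cell numbers beside the higher cells. The 5 cells with high Mcpt8 have Mpo and Ctsg, and Lyz2 of at most 1.64 RPKM, while the 3 cells with the highest Lyz2 have Mcpt8 listed at 0.

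The remaining class A cells without the 10 genes were not alike. Wild-type cell 4 held Ly86 at 473, Mpeg1 at 150, Tyrobp at 667 and Irf8 at 95.6, with 7 of the 18 monocyte and macrophage markers detected, but no lysozyme. Wild-type cell 28 held Gata1 at 84.1, the erythroid factor gene Klf1 at 28.4 and the erythropoietin receptor gene Epor at 39.0, with 0 monocyte markers. EPO-treated cells 7, 20 and 21 had globin shares of 38.4%, 2.98% and 1.26%. The 17 Flvcr-deleted cells ran from 0.625% to 89.5%.

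The genes whose level followed the mean log2 level of the 10 most closely were ranked by Pearson's r over all 127 cells, among 6916 genes detected in at least 6 cells. These are descriptions over cells that share their chips, and most points lie at 0 on both measures. The highest was Ms4a6b (0.90), followed by Ms4a6c (0.89), BC028528 (0.89), Emb (0.86), Plac8 (0.84), C920021L13Rik (0.84), Fxyd5 (0.84), Tyrobp (0.83), Ms4a3 (0.82) and Fcer1g (0.82). Ms4a6b was detected in 6 cells and Ms4a6c in 7, all among the 9. Plac8 was detected in all 9, at 154 to 4464, and in 2 other cells, of which 1 was a class A cell.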

How the data were processed

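The authors deposited RPKM values, in a single table whose 34898 rows were RefSeq transcripts and whose columns were cells. The submitters' processing notes name TopHat2 2.0.9 and the mouse build mm9. How reads were counted, how those with several matches were treated and whether cells had been filtered is not given in the sources used here. A further 4 columns matched no sample and were left out. Groups and class letters came from the labels.

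The members and the 10 marker lists were chosen with earlier results of these data known. All 10 members are named, and cells are named where a member reached an RPKM of 100 or at least 3 members were detected. The further genes named are those of the lists and the 10 genes most like the members by Pearson's r. Mfsd7b was added as the targeted gene. Jun, Junb and Ier2, wild-type cells 4, 28 and 42 and Flvcr-deleted cell 45 were singled out after their values were seen. Of the markers, 1 was not in the table. Detection was an RPKM of at least 1 and levels were log2(RPKM + 1).

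Alternatives were other detection thresholds, pseudocounts, scalings, row choices and cell filters, and leaving out each class A cell. Scripts were tested on simulated data. Promoters and gene order came from RefSeq (GRCm38.p6 for the promoters, which had all 10 members), exon numbers and transcripts from GENCODE vM21; mm9 coordinates were not used. Python 3.11.15, pandas 2.3.3, numpy 2.4.6, scipy 1.17.1 and matplotlib 3.10.9 were used.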

Additional observations from a re-analysis of the deposited data

Results flagged for a closer look

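Within each group and class letter of 4 to 10 cells, 14 sets of values were checked for a highest cell far from the others. Among values without ties such a check marks about 1 in 20 by chance, but that rate does not hold here, since any lone value above cells at 0 is marked. It marked 6, which are given as values only. In wild-type class A, cell 12 stood alone with Prtn3 at 153. That cell was also marked for Lyz1 at 47.6 and Lyz2 at 343, where cell 9 had 0.228 and 1.64. In wild-type class B, cell 42 stood alone with Mpo at 2.66 and Prtn3 at 6.78. In Flvcr-deleted class C, cell 45 stood alone with Camp at 3.89. That cell also held Tyrobp at 124, beside Hbb-b1 at 85154. The 18 Flvcr-deleted class A cells were too many for this check.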

How the results depend on the processing

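Each group is 1 sample, so no result had a test to lose. No paired analysis was possible because the replicate numbers only name cells and no test was made. Requiring an RPKM of 100, or at least 5 members, took the share of class A cells with 3 or more members to 0% in Flvcr-deleted and 0% in wild-type cells. The wild-type share was 16.7% at an RPKM of at least 10 and 16.7% without Lyz1, the EPO-treated share 16.7% without the smaller chip, and the Flvcr-deleted share 11.1% without suffix d cells and 14.3% among cells with at least 1000 genes. Requiring at least 2 members gave 66.7% for the wild-type group and 57.1% for the EPO-treated one. In classes B to D, thresholds of 10 or 100 or at least 3 members gave 0% in Flvcr-deleted and 0% in wild-type cells, and counting any value above 0 gave 29.2% (7 of 24) in EPO-treated cells. Leaving out each class A cell in turn gave shares from 0% to 5.88% in Flvcr-deleted, 20% to 40% in the wild-type group and 16.7% to 33.3% in the EPO-treated one. It gave median differences from -0.59 to 0 for Flvcr-deleted minus wild-type and from 0 to 0.42 for EPO-treated minus wild-type cells. The Flvcr-deleted share was 0% without cell 8. Without the filter on low values the background of genes lower by 1 or more was 29.6% and 23.2%, against 63.7% and 50.3% with it. Of the values of the main results, 58 stayed within the wide intervals or spread over cells. The shares from 11.1% to 66.7% given first were among them. Another 11 moved outside: the shares of 0% at higher thresholds or member numbers, and that of 29.2%. All 260 values of single genes stayed, and the 2 background shares moved. The number of cells, 6 and 7 in class A of the wild-type and EPO-treated groups, limits every share, and read depth is unknown.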
